A study of Mus musculus with 12 samples.

Results

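Notch receptors, their ligands and their target genes were followed in isolated mouse glomeruli that had been stimulated with TNF and that carried or lacked the TNF receptors TNFR1 and TNFR2. The set held 10 genes, namely the 4 receptors Notch1, Notch2, Notch3 and Notch4, the 2 ligands Jag1 and Dll4, and the 4 target genes Hes1, Hey1, Hey2 and Heyl. All probe sets annotated to these genes alone were taken, which gave 20 of the 45101 probe sets on the array, and each gene was represented by its lead probe set, the one with the highest mean over the 12 arrays. The 10 genes are compared below with all 18194 genes that had such a probe set, and every one of them was measured on every array without a filter on low values.

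Glomeruli came from male mice of 6 to 8 weeks, either C57BL/6J wildtype, Tnfr1-/- (strain B6.129-Tnfrsf1atm1Mak), Tnfr2-/- (strain B6.129-Tnfrsf1btm1Mwm) or Tnfr1,2-/- (both deletions, from crosses of the single mutants). For each genotype 3 RNA preparations of 5000 cultured glomeruli were hybridised, after serum starvation and 12 hours with murine TNF at 50 ng/ml. All 4 groups received TNF and no unstimulated array was analysed here, so each value below is a level under TNF and each difference is one between genotypes, not a response to TNF. The receptors were lost in every cell of the mouse, and whole glomeruli were measured, so that fewer cells of a type and less RNA per cell cannot be told apart.

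Notch receptors are transmembrane proteins that are activated by ligands of the Jagged and Delta-like families on a neighbouring cell. Ligand binding exposes the receptor to a sheddase of the ADAM family and then to gamma-secretase, and the freed intracellular domain enters the nucleus and joins the DNA-binding protein RBPJ to switch on target genes, above all the basic helix-loop-helix repressors of the Hes and Hey families. In the glomerulus the pathway is known from endothelial, mesangial and podocyte biology, with Notch1, Notch4 and Dll4 typical of endothelium and Notch3 and Heyl typical of smooth muscle and pericyte-like cells.

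To show the promoter windows of the genes the results turn on, sequences were taken from RefSeq (build GRCm38.p6), which gave a window of 300 bases, 250 before and 50 after the gene start, for 7 of the 10 members (the 4 receptors, both ligands and Hey2). Printed here are the 250 bases before the start, on the strand of the gene, of Hey2 as the only member of the Hes and Hey families with a window, of Notch3 as the receptor that differed most between genotypes, and of Nrarp, a further Notch target that is described below. Capitals mark the RBPJ core TGGGAA on either strand and the E-box CACGTG. The Hey2 stretch lies at chr10:30842784-30843033 on the minus strand, the Notch3 stretch at chr17:32166891-32167140 on the minus strand and the Nrarp stretch at chr2:25180508-25180757 on the plus strand.
Hey2: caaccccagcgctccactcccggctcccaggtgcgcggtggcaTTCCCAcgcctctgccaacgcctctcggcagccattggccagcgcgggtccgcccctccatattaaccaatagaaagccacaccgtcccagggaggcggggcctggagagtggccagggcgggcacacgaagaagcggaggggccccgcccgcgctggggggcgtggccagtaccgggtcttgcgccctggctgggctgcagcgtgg
Notch3: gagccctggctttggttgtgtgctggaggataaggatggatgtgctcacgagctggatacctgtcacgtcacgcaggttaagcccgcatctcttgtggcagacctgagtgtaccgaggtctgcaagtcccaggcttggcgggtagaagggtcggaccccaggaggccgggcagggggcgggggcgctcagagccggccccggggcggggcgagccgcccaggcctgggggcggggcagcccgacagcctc
Nrarp: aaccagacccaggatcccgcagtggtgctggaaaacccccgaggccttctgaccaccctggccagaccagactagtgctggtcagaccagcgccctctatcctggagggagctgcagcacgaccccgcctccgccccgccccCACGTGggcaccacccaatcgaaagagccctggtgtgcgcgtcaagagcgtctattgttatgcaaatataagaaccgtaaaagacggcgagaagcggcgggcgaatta
The RBPJ core occurred in the window of 1 of the 7 members, Hey2, which held 2 matches, the printed one and one that spans the gene start. Of all 32851 promoter windows of this length 25.6% held it. The site CACGCG, which binds repressors of the Hes and Hey type, occurred in 3 of the 7 members (Notch2, Jag1 and Dll4) and in 9.27% of all windows, and the E-box CACGTG in none of the 7 and in 7.15% of all windows. A loose NF-kB pattern, searched on both strands like the other motifs, occurred in all 7 members and in 50.8% of all windows. These matches describe the letters of the windows and not sites bound in glomeruli.

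The labels were first checked on the deleted genes and on markers of the tissue. Tnfrsf1a, the gene of TNFR1, was lower in Tnfr1,2-/- than in wildtype glomeruli (log2 change -1.27, SE 0.237, limma adjusted p = 0.0228). All 6 Tnfr1-deficient arrays lay below all 6 others, though narrowly, with Tnfr1-/- replicate 2 at 10.18 and wildtype replicate 3 at 10.23. Its change in Tnfr1-/- glomeruli alone was -0.82 (limma adjusted p = 0.217). The lead probe set of Tnfrsf1b, the gene of TNFR2, changed by -2.15 in Tnfr1,2-/- (limma adjusted p = 0.00616) and by -2.30 in Tnfr2-/- glomeruli (limma adjusted p = 0.125), with every array of these groups below every wildtype array. A second Tnfrsf1b probe set changed by only -0.09 in Tnfr1,2-/- and -0.47 in Tnfr2-/- glomeruli, with arrays that overlapped wildtype. Probe sets that lie outside a deleted stretch can keep signal in a mutant, so these values are residual signals rather than zeros. Of the podocyte markers 7 of 10 were measured, and the podocyte gene Nphs1 had group means of 8.30 to 8.55, above the array medians of 5.59 to 5.64. Of the tubular markers all 8 were measured, and while Lrp2 had group means of 4.02 to 4.93, below the array medians, Umod at 6.80 to 7.79 and Fxyd2 at 8.09 to 8.71 were above them, so tubular RNA was detectable too. Levels of different probe sets are not comparable, and the share of tubular RNA was not measured. The beta-actin controls, read at the 3' and at the 5' end as a measure of RNA or labelling quality, split the arrays into 2 sets. The log2 excess of the 3' end was 0.67 to 1.005 on 7 arrays and 1.82 to 2.30 on the other 5, which were replicate 3 of each genotype and replicate 2 of Tnfr1,2-/-.

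Heyl was the member that differed most, and it was higher wherever TNFR1 was missing. Heyl, a target gene that encodes a transcriptional repressor of the Hey family, had log2 values of 7.88, 7.11 and 6.89 in wildtype and of 7.64, 6.85 and 7.05 in Tnfr2-/- glomeruli. It had values of 10.19, 9.83 and 9.49 in Tnfr1-/- and of 10.06, 9.33 and 9.25 in Tnfr1,2-/- glomeruli. All 6 Tnfr1-deficient arrays thus lay above all 6 arrays with TNFR1, by more than the spread within any genotype, while wildtype and Tnfr2-/- arrays overlapped, as did Tnfr1-/- and Tnfr1,2-/- arrays.

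Set against wildtype, Heyl was 5.83-fold higher in Tnfr1-/- glomeruli (log2 change 2.54, SE 0.316, limma adjusted p = 0.002) and 4.76-fold higher in Tnfr1,2-/- glomeruli (log2 change 2.25, SE 0.316, limma adjusted p = 0.00344). These comparisons share the 3 wildtype arrays. The study, which used SAM, also lists Heyl as higher in both genotypes. Against Tnfr2-/- glomeruli, the Tnfr1,2-/- glomeruli were 5.16-fold higher (log2 change 2.37, limma adjusted p = 0.00248). A gene was called where its Benjamini-Hochberg adjusted p over all genes was under 0.05 and its change at least 1.5-fold. By that rule Heyl was the 1 member of 10 called in each of the 3 comparisons, where 1.2%, 1.3% and 1.39% of all genes were called in the same order. Among 18194 genes Heyl ranked 4th by size of increase in Tnfr1-/- and 12th in Tnfr1,2-/- against wildtype.

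Loss of TNFR2 alone left Heyl within the range of its replicates, with a log2 change of -0.11 against wildtype and a 95% interval from -0.81 to 0.58. No member was called in this comparison, in which limma called 0% of all genes and the SAM procedure called 4 genes. An unadjusted limma p under 0.05 was reached by 128 of 18194 genes, fewer than that threshold gives without any difference. Loss of TNFR2 on top of TNFR1 changed Heyl by -0.29 (Tnfr1,2-/- against Tnfr1-/-, 95% interval -0.98 to 0.40), and no member was called there, where limma called 0.0055% of genes, or 1 gene, and SAM 3. These intervals allow a change of Heyl of up to about 0.98 on the log2 scale, well under the differences that went with TNFR1.

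With both genotypes that lack TNFR1 set against both that carry it, 6 arrays against 6, Heyl was 5.48-fold higher (log2 change 2.45, SE 0.224, 95% interval 1.96 to 2.95, limma adjusted p = 6.95e-05). It ranked 4th of all genes by increase. In this comparison 2.52% of all genes were called, and 2 of the 10 members, Heyl and Notch3, both higher. The difference of Heyl was present in both array sets, at 2.67 in the 3 against 4 arrays of low and at 2.42 in the 3 against 2 arrays of high actin 3' excess. The interaction of both losses was -0.18 for Heyl (SE 0.447, limma adjusted p = 0.998), and none of the 10 members was called for an interaction, which limma called for 0% of all genes. Here 245 genes had an unadjusted limma p under 0.05, again fewer than that threshold gives without any difference.

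**Figure D1:**
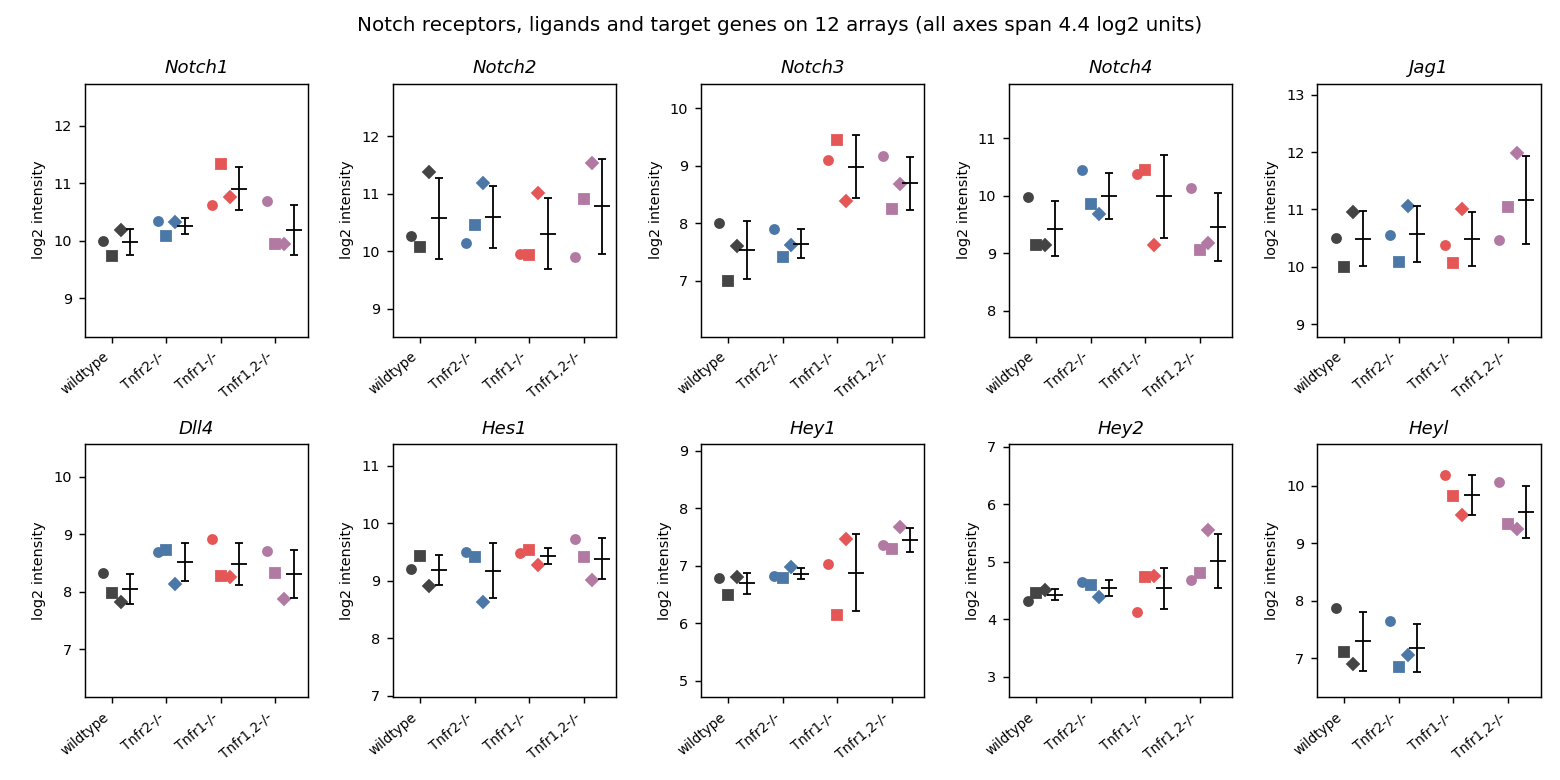
Log2 intensity of the lead probe set of each of the 10 Notch genes (y axis, each spanning 4.4 log2 units) by genotype (x axis) on 12 arrays. Circles, squares and diamonds are replicates 1, 2 and 3, and the black bar is the mean with its SD (n = 3). Heyl at 9.25 to 10.19 in all Tnfr1-deficient arrays stands above 6.85 to 7.88 in the others, and Notch3 shows a smaller gap.

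The other 2 probe sets of Heyl moved the same way. The second brightest one read 6.97, 6.44 and 6.28 in wildtype, 6.88, 6.88 and 6.97 in Tnfr2-/-, 9.26, 9.53 and 8.92 in Tnfr1-/- and 9.91, 8.78 and 8.23 in Tnfr1,2-/- glomeruli, and was called in the comparison of 6 with 6 arrays (log2 change 2.37, limma adjusted p = 0.000506 over all probe sets). The dimmest of the 3 changed by 1.63 with all 6 Tnfr1-deficient arrays above the other 6, but missed the threshold (limma adjusted p = 0.0675 over all probe sets). On this probe set the array sets separated within both Tnfr1-deficient genotypes: Tnfr1-/- replicates 1 and 2 read 8.56 and 8.38 and replicate 3 read 6.93. In Tnfr2-/- glomeruli they did not separate.

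The remaining 3 target genes of the Hes and Hey families did not pass the test in any comparison. Hes1, the repressor most widely used as a readout of Notch activity, had values of 9.21, 9.43 and 8.90 in wildtype, 9.49, 9.41 and 8.62 in Tnfr2-/-, 9.48, 9.52 and 9.26 in Tnfr1-/- and 9.72, 9.41 and 9.01 in Tnfr1,2-/- glomeruli. The 4 groups overlapped, and the change with TNFR1 loss was 0.23 (95% interval -0.16 to 0.61, limma adjusted p = 0.765). Hes1 was lower by 0.50 on the arrays of high actin 3' excess within genotypes.

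Hey1, a relative of Heyl that acts in vascular development, read 6.79, 6.49 and 6.81 in wildtype, 6.83, 6.78 and 6.97 in Tnfr2-/-, 7.04, 6.14 and 7.47 in Tnfr1-/- and 7.36, 7.30 and 7.68 in Tnfr1,2-/- glomeruli. All 3 Tnfr1,2-/- arrays lay above all wildtype arrays, whereas the Tnfr1-/- arrays, at 6.14 to 7.47, overlapped every other group. That overlap came from Tnfr1-/- replicate 2 at 6.14, as every other Tnfr1-deficient array lay above all arrays with TNFR1. The log2 change was 0.75 in Tnfr1,2-/- (SE 0.272, limma adjusted p = 0.41) and 0.19 in Tnfr1-/- glomeruli (limma adjusted p = 1). Over 6 against 6 arrays it was 0.39. With 1 array left out at a time that change was 0.24 to 0.57 (limma adjusted p 0.0349 to 0.829). All of these changes lay under the fold threshold, so Hey1 was not called.

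Hey2, known from arterial endothelium, was dim, with values of 4.31 to 4.51 in wildtype, 4.39 to 4.65 in Tnfr2-/-, 4.12 to 4.74 in Tnfr1-/- and 4.68 to 5.56 in Tnfr1,2-/- glomeruli, against a median of 5.59 to 5.64 over all probe sets of an array. Its change in Tnfr1,2-/- glomeruli was 0.59 (limma adjusted p = 0.483), with replicate 3 at 5.56 apart from 4.68 and 4.80. At this signal a difference in Hey2 may not have been measurable.

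Because these genes are targets of one pathway, Heyl was compared with each of them within an array. A difference between 2 probe sets has no meaning as a level, but its shift between genotypes shows whether both genes changed by the same amount. Heyl minus Hes1 was -1.94 on average in the 6 arrays with TNFR1 (range -2.56 to -1.33) and 0.29 in the 6 without (range -0.08 to 0.71). The shift was 2.23 log2 units. Heyl minus Hey1 shifted by 2.07, from 0.46 (range 0.07 to 1.09) to 2.53 (range 1.57 to 3.69). In neither pair did the 6 and 6 arrays overlap. A two-sided exact permutation test gave p = 0.005 for both pairs, the smallest it can give. The TNFR1 label was exchanged within TNFR2 status over 400 arrangements. The Benjamini-Hochberg adjusted values over the 3 pairs computed were the same. Heyl was chosen with its change on these arrays known, and both pairs use the same Heyl values. The p-values therefore describe the separation, and are neither independent evidence for it nor separate results for each pair. With the dimmest Heyl probe set the shift against Hey1 was 1.24, with an exact permutation p of 0.085, which no longer passed. Heyl minus Hey2 went from 2.75 to 4.92, but Hey2 lay below the median of every array, so this pair is given as a description only.

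**Figure D2:**
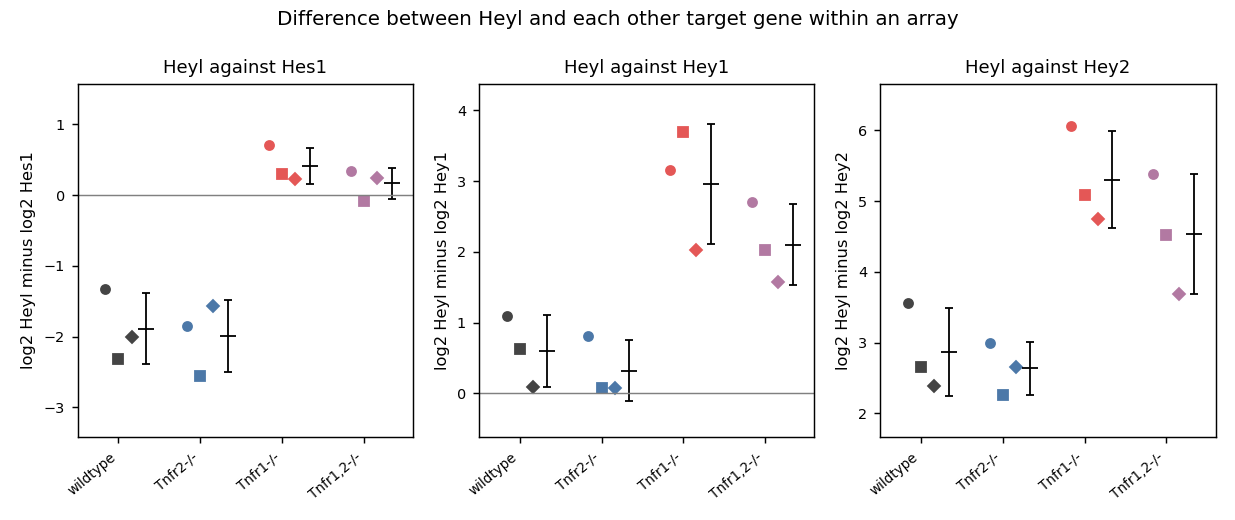
Log2 value of Heyl minus that of Hes1, Hey1 or Hey2 on the same array (y axis, 5 log2 units in each panel) by genotype (x axis), with replicates 1, 2 and 3 as circles, squares and diamonds and the mean with its SD (n = 3) in black. The Tnfr1-deficient arrays are shifted upwards by 2.23 against Hes1 and 2.07 against Hey1, without overlap with the arrays that carry TNFR1. The pair with the dim Hey2 is a description only.

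Of the receptors, Notch3 was higher without TNFR1. Notch3, the receptor of vascular smooth muscle and pericytes, read 8.00, 7.00 and 7.61 in wildtype and 7.90, 7.41 and 7.63 in Tnfr2-/- glomeruli. It read 9.11, 9.46 and 8.38 in Tnfr1-/- and 9.16, 8.24 and 8.68 in Tnfr1,2-/- glomeruli. All 6 Tnfr1-deficient arrays again lay above all 6 others.

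Over 6 against 6 arrays Notch3 was 2.37-fold higher (log2 change 1.25, SE 0.232, 95% interval 0.74 to 1.76, limma adjusted p = 0.0117). In the separate comparisons with wildtype its log2 changes of 1.44 in Tnfr1-/- (limma adjusted p = 0.0706) and of 1.16 in Tnfr1,2-/- glomeruli (limma adjusted p = 0.193) did not pass. With the array set as a block both passed (1.44, adjusted p = 0.0155 and 1.28, adjusted p = 0.0418), and the difference was 1.64 within the arrays of low and 0.80 within those of high actin 3' excess. The call rests on the lead probe set, whose _s_at suffix marks probes shared between transcripts. The second Notch3 probe set changed by 0.92 with overlapping groups (limma adjusted p = 0.59 over all probe sets), and the mean of both by 1.08 (limma adjusted p = 0.146). Within each array set the second probe set did not overlap. It read 7.66 to 8.06 without and 5.65 to 6.81 with TNFR1 on arrays of low actin 3' excess. On those of high excess it read 5.96 to 6.11 without and 5.29 to 5.77 with TNFR1.

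**Figure D3:**
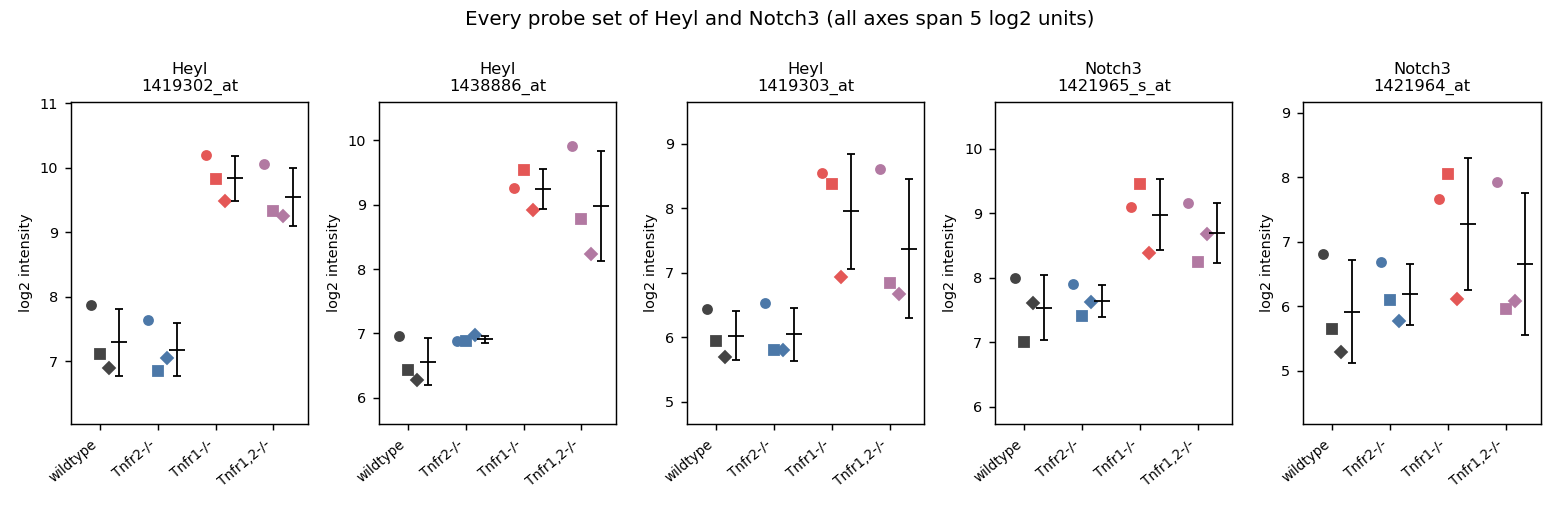
Log2 intensity (y axis, each spanning 5 log2 units) of the 3 Heyl and 2 Notch3 probe sets by genotype (x axis), with replicates 1, 2 and 3 as circles, squares and diamonds and the mean with its SD (n = 3) in black. All 3 Heyl probe sets and the Notch3 lead probe set separate the 6 Tnfr1-deficient arrays from the other 6, while the second Notch3 probe set, in the last panel, overlaps.

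The summed level of mesangial and smooth muscle markers was also higher on the Tnfr1-deficient arrays. Of 12 markers in that list 11 were measured, and their summed log2 level was 14.08 to 14.40 in wildtype, 14.17 to 14.40 in Tnfr2-/-, 14.54 to 14.72 in Tnfr1-/- and 14.51 to 14.84 in Tnfr1,2-/- glomeruli, a mean difference of 0.34 or 1.26-fold without TNFR1. Itga8, an integrin of mesangial cells, was called higher in Tnfr1-/- against wildtype (log2 change 1.40, limma adjusted p = 0.00524) and over 6 against 6 arrays (0.98, limma adjusted p = 0.00246). It was the only called marker of the 11 (2.52% of all genes were called over 6 against 6 arrays). There 9 of the 11 changes were positive, with a median of 0.20 beside 0.0023 over all genes, while in Tnfr1-/- against wildtype 7 of 11 were positive with a median of 0.07, and the lowest change in Tnfr1,2-/- against wildtype was -1.08. The differences of Heyl and Notch3 were larger than that of the summed level, and the part of these cells in the result was not tested. Summed podocyte markers differed by 0.29, endothelial markers by 0.29, tubular markers by 0.28 and leukocyte markers by 0.05 in the same direction, with overlapping arrays in each.

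Notch1 did not pass the test in any comparison, although its lead probe set was highest in Tnfr1-/- glomeruli. Notch1, the receptor of endothelial and many other cells, read 10.004, 9.74 and 10.19 in wildtype, 10.35, 10.09 and 10.34 in Tnfr2-/-, 10.63, 11.33 and 10.76 in Tnfr1-/- and 10.69, 9.95 and 9.94 in Tnfr1,2-/- glomeruli. The 3 Tnfr1-/- arrays lay above all wildtype and Tnfr2-/- arrays, but Tnfr1,2-/- replicate 1 reached into them. Its log2 changes were 0.93 in Tnfr1-/- (SE 0.239, limma adjusted p = 0.124) and 0.22 in Tnfr1,2-/- glomeruli (limma adjusted p = 0.848), and its interaction was -0.996 (SE 0.338, limma adjusted p = 0.998). The second Notch1 probe set changed by 0.29 in Tnfr1-/- glomeruli, with overlapping arrays (limma adjusted p = 1 over all probe sets). Endothelial markers, all 10 measured, had summed log2 levels of 12.38 to 12.93 in wildtype, 12.73 to 13.40 in Tnfr2-/-, 12.82 to 13.77 in Tnfr1-/- and 12.58 to 13.29 in Tnfr1,2-/- glomeruli. The endothelial VEGF receptor gene Kdr was called higher in Tnfr1-/- against wildtype (1.09, limma adjusted p = 0.0414). It was the only called marker of the 10 there, where 1.2% of all genes were called and all 10 changes were positive. In Tnfr1,2-/- against wildtype none was called and 6 of 10 changes were positive, the lowest at -0.43. The part of endothelial cells in the Notch1 values was not tested.

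The lead probe sets of Notch2 and Notch4 varied more with the array set than with the genotype. Notch2, the receptor of podocytes and other kidney epithelia, read 9.91 to 10.46 on the 7 arrays of low and 10.91 to 11.53 on the 5 arrays of high actin 3' excess, 1.12 higher within genotypes, and its change with TNFR1 loss was -0.04 (95% interval -0.78 to 0.70). Notch4, an endothelial receptor, was 0.79 lower on the same 5 arrays by its lead probe set. The values were 9.15 to 9.98 in wildtype, 9.68 to 10.45 in Tnfr2-/-, 9.15 to 10.44 in Tnfr1-/- and 9.05 to 10.14 in Tnfr1,2-/- glomeruli. The change of this probe set with TNFR1 loss was 0.01 (95% interval -0.62 to 0.63). A dimmer Notch4 probe set went the other way with the array set, at 5.75 to 6.74 on those 5 arrays and 5.05 to 5.56 on the other 7. It changed by 0.35 with TNFR1 loss, with overlapping groups. On the dimmest one, at 3.05 to 3.71, the array sets overlapped.

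The ligands did not pass the test in any comparison. Jag1, the Jagged ligand of smooth muscle and epithelial cells, read 10.51, 10.003 and 10.96 in wildtype, 10.56, 10.09 and 11.06 in Tnfr2-/-, 10.39, 10.06 and 11.002 in Tnfr1-/- and 10.48, 11.04 and 11.98 in Tnfr1,2-/- glomeruli. The first 3 groups covered the same range, and the 2 high Tnfr1,2-/- arrays were those of high actin 3' excess. On such arrays this lead probe set of Jag1 was 0.81 higher within genotypes. The change in Tnfr1,2-/- glomeruli was 0.67 (SE 0.4, limma adjusted p = 0.706). The 2 dimmer Jag1 probe sets changed by 0.05 and -0.21 with TNFR1 loss, with overlapping groups. The dimmest went the other way with the array set, at 5.41 to 5.88 on arrays of high and 6.05 to 6.67 on those of low actin 3' excess.

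Dll4, the Delta-like ligand of endothelial tip cells, read 7.82 to 8.33 in wildtype, 8.14 to 8.72 in Tnfr2-/-, 8.26 to 8.91 in Tnfr1-/- and 7.87 to 8.70 in Tnfr1,2-/- glomeruli. All 4 groups overlapped. Its changes against wildtype were 0.47 in Tnfr2-/-, 0.44 in Tnfr1-/- and 0.26 in Tnfr1,2-/- glomeruli, with limma adjusted p of 1, 1 and 0.833.

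Over the 10 members, the median log2 change was 0.42 in Tnfr1,2-/- and 0.34 in Tnfr1-/- against wildtype and 0.11 in Tnfr2-/- against wildtype, where the median over all genes was -0.0012, -0.0049 and 0.00071. The change was positive for 10, 8 and 8 of the 10 members. Over 6 against 6 arrays the median was 0.29 and 9 of 10 changes were positive. Apart from Heyl and Notch3 the changes in that comparison lay between -0.04 for Notch2 and 0.43 for Notch1, and no interval of these 8 members reached past 0.92 on the log2 scale.

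**Figure D4:**
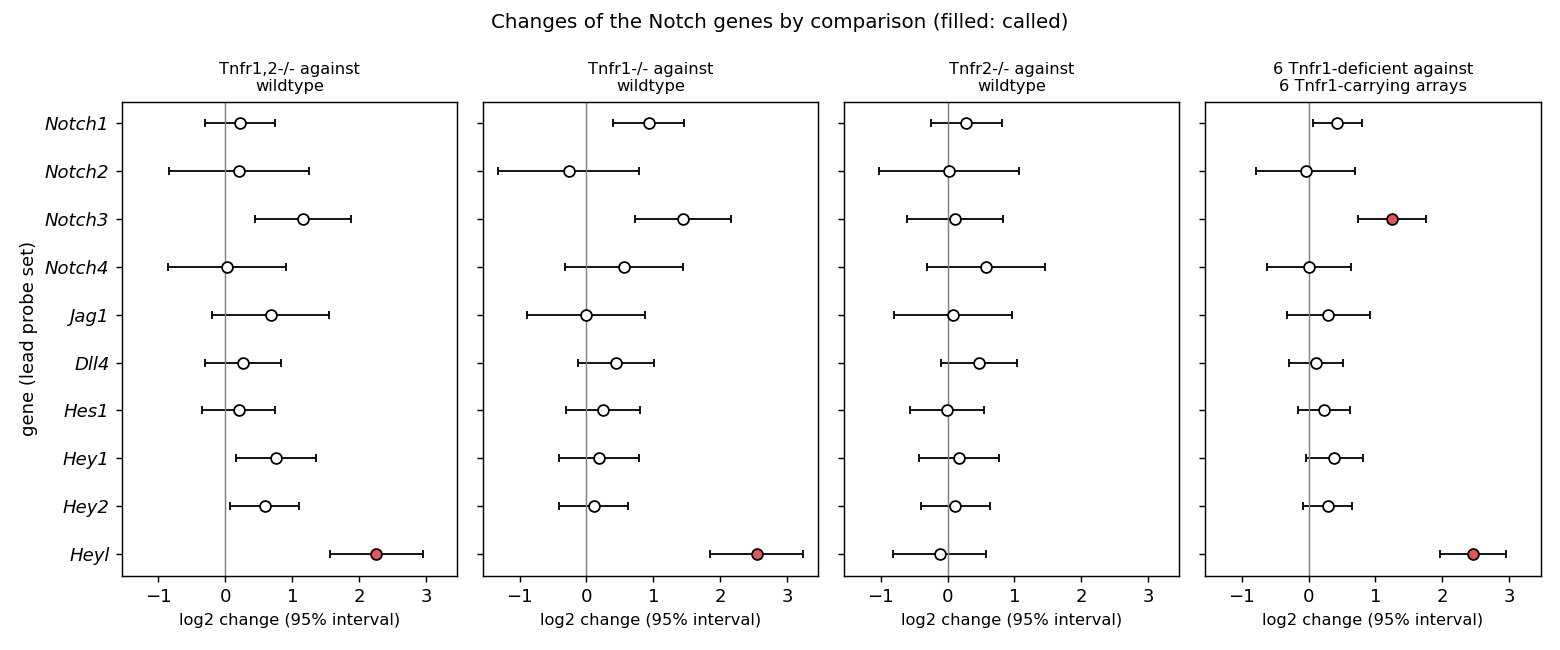
Log2 change (x axis) of the lead probe set of each Notch gene (y axis) in 4 comparisons, with its 95% interval from limma. Filled points passed the call rule: Heyl at 2.25, 2.54 and 2.45 in the 3 comparisons of TNFR1 loss and Notch3 at 1.25 in the comparison of 6 with 6 arrays, while no point is filled for Tnfr2-/- against wildtype.

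To see whether the rest of the pathway moved with the members, 46 other Notch pathway genes were listed by function, of which 43 were measured. Over 6 against 6 arrays 1 of the 43 was called higher and 3 were called lower, where 0.929% of all genes were called higher and 1.59% lower, with a median change of 0.01. Against wildtype 0 were called higher and 2 lower in Tnfr1,2-/- glomeruli (median -0.04), 1 higher and 2 lower in Tnfr1-/- glomeruli (median 0.08), and 0 in Tnfr2-/- glomeruli (median -0.0039), beside 1.3%, 1.2% and 0% of all genes called in either direction. Between Tnfr1,2-/- and Tnfr2-/- glomeruli 2 were called lower, beside 1.39% of all genes called, and between Tnfr1,2-/- and Tnfr1-/- glomeruli none.

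Adam17, a sheddase that can cleave Notch receptors and also releases TNF and its receptors from the cell surface, was lower without TNFR1. It read 10.69, 10.62 and 10.47 in wildtype, 10.79, 10.82 and 10.66 in Tnfr2-/-, 9.87, 9.91 and 9.75 in Tnfr1-/- and 9.83, 9.44 and 9.67 in Tnfr1,2-/- glomeruli. The 6 Tnfr1-deficient arrays lay below the other 6 with a gap wider than the spread of any group, and the log2 change was -0.93 (SE 0.0932, limma adjusted p = 0.000152). It fell in each single comparison too, by 0.75 in Tnfr1-/- (limma adjusted p = 0.0174) and by 0.94 in Tnfr1,2-/- against wildtype (limma adjusted p = 0.00325). The mean of all its probe sets was lower by a like amount, -1.07, but did not pass (limma adjusted p = 0.197), and the call in Tnfr1-/- against wildtype was lost in 4 of 12 cases with 1 array left out (limma adjusted p 0.014 to 0.0945). The other 7 measured genes of receptor cleavage and maturation were not called in a comparison. Among them the gamma-secretase subunit gene Psenen read 10.84 to 11.49 over the 12 arrays, and the sheddase gene Adam10 had group means of 10.01 to 10.18. The gamma-secretase subunit gene Psen2 had means of 9.95 in wildtype, 9.86 in Tnfr2-/-, 9.37 in Tnfr1-/- and 9.04 in Tnfr1,2-/- glomeruli. Its Tnfr1,2-/- arrays, at 8.94 to 9.19, lay below all wildtype arrays, at 9.59 to 10.17. The study lists Psen2 as lower in Tnfr1,2-/- glomeruli, and Adam17 as lower in both Tnfr1-/- and Tnfr1,2-/- glomeruli.

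Among 10 antagonists and turnover factors, 2 Deltex genes were lower without TNFR1. Dtx3l, an E3 ubiquitin ligase gene that is also known as interferon-inducible, read 8.66, 8.76 and 9.25 in wildtype, 8.75, 8.57 and 9.26 in Tnfr2-/-, 7.21, 7.62 and 7.91 in Tnfr1-/- and 7.15, 7.61 and 8.01 in Tnfr1,2-/- glomeruli. The arrays did not overlap between TNFR1 states, at a log2 change of -1.29 (SE 0.191, limma adjusted p = 0.00239). Against wildtype it fell by 1.31 in Tnfr1-/- (limma adjusted p = 0.0416) and by 1.30 in Tnfr1,2-/- glomeruli (limma adjusted p = 0.0403), and the calls were lost in 8 of 12 cases each with 1 array left out (limma adjusted p 0.0269 to 0.171 and 0.0323 to 0.166). Dtx4, a second Deltex ligase gene, read 10.40, 10.13 and 9.88 in wildtype, 10.07, 10.002 and 10.13 in Tnfr2-/-, 9.40, 9.39 and 8.63 in Tnfr1-/- and 9.41, 8.88 and 9.07 in Tnfr1,2-/- glomeruli. It was called over 6 against 6 arrays (-0.97, SE 0.158, limma adjusted p = 0.00458), without overlap, but not against wildtype in Tnfr1-/- (-1.001, limma adjusted p = 0.0638) or Tnfr1,2-/- glomeruli (-1.02, limma adjusted p = 0.0567). The study, by SAM, lists both Dtx3l and Dtx4 as lower in Tnfr1-/- and in Tnfr1,2-/- glomeruli. Nedd4, the ubiquitin ligase gene with the brightest lead probe set of that list, read 11.16 to 12.31 and was not called.

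Nrarp, a target gene whose ankyrin-repeat product limits Notch signaling, was the 1 other pathway gene that was higher. It read 8.51, 7.69 and 8.63 in wildtype, 8.67, 8.90 and 8.83 in Tnfr2-/-, 9.22, 9.29 and 9.37 in Tnfr1-/- and 9.09, 9.32 and 9.20 in Tnfr1,2-/- glomeruli. Tnfr2-/- arrays lay above wildtype and below both Tnfr1-deficient groups, and wildtype replicate 2 was low. The change was 1.02 in Tnfr1-/- against wildtype (SE 0.211, limma adjusted p = 0.0437) and 0.71 over 6 against 6 arrays (SE 0.149, limma adjusted p = 0.0249), while 0.93 in Tnfr1,2-/- against wildtype did not pass (limma adjusted p = 0.0685). With 1 array left out at a time, the change over 6 against 6 arrays was 0.56 to 0.80 with limma adjusted p of 0.0106 to 0.0742, and the call was lost in 9 of 12 cases. The call in Tnfr1-/- against wildtype was lost in 11 of 12 cases (limma adjusted p 0.0305 to 0.13). The other 3 measured targets, Hes5, Hes6 and Hes7, were not called.

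**Figure D5:**
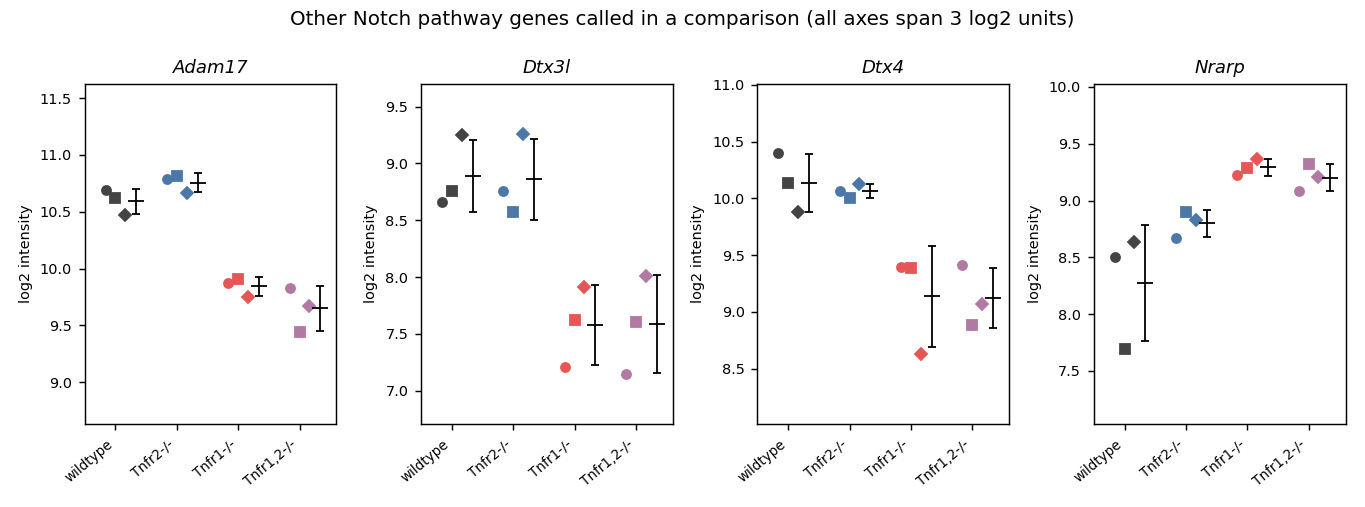
Log2 intensity (y axis, each spanning 3 log2 units) of the 4 further Notch pathway genes called in a comparison, by genotype (x axis), with replicates 1, 2 and 3 as circles, squares and diamonds and the mean with its SD (n = 3) in black. Adam17, Dtx3l and Dtx4 are lower and Nrarp is higher on all 6 Tnfr1-deficient arrays than on the other 6.

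The other lists held no called gene. They were the 5 further ligands, with Jag2 as the brightest at 7.63 to 8.85, and 5 genes of receptor glycosylation, with Poglut1 at 9.26 to 9.69. They were also 6 measured genes of the nuclear complex and its co-repressors, with Snw1 at 10.36 to 11.19, and 5 genes of ligand endocytosis, with Mib1 at 8.95 to 10.25.

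The genes whose pattern over the 12 arrays was most like that of Heyl were Fam107b (Pearson r = 0.968), Vegfd (r = 0.965), Rasl10b (r = 0.964), Prickle1 (r = 0.959) and Hopx (r = 0.957), among 10895 genes with a mean log2 value of at least 6. Vegfd encodes a lymphangiogenic growth factor, Prickle1 a planar cell polarity protein and Hopx a homeodomain cofactor. Of the members, Notch3 ranked 19th in likeness to Heyl (r = 0.923), Notch1 658th (r = 0.576) and Hes1 1010th (r = 0.497). The 12 arrays share 4 genotypes, so these correlations describe mostly the genotype means.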

How the data were processed

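Total RNA of isolated glomeruli was hybridised to Affymetrix mouse arrays, 3 per genotype, from independent RNA preparations. Neither source says that these came from separate mice, so p-values measure the spread between preparations, and the number of arrays limits the precision. The deposited log2 values were made by the authors with RMA on all 12 arrays together and were used as given, with no depth or detection calls. Of 45101 probe sets 34958 carried 1 gene symbol, 932 several and 9211 none, and the first kind gave 18194 genes by lead probe set. Differences were fitted with limma 3.58.1 (lmFit, eBayes) in R 4.3.3 on all 12 arrays, with Benjamini-Hochberg adjustment over all genes, and called at adjusted p under 0.05 and 1.5-fold. Single probe sets were adjusted over all 34958. Exact permutation of 3 against 3 arrays cannot go below 0.1. All members and the deleted genes were named, with pathway genes called or brightest in their list, markers called against wildtype and the 5 genes most like Heyl. Named outside that rule were the markers Nphs1, Lrp2, Umod and Fxyd2 and the pathway genes Adam10, Psen2, Hes5, Hes6 and Hes7. Alternatives included SAM, which the authors used, other scalings, probe set rules, blocks and leaving out each array. The scripts were tested on simulated data. The members and gene lists were chosen with earlier results of these data known, including the change of Heyl.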

Additional observations from a re-analysis of the deposited data

How the results depend on the processing

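By its lead probe set, or the mean of all its probe sets, Heyl kept its direction and its call against wildtype in Tnfr1-/- and Tnfr1,2-/- glomeruli, in Tnfr1,2-/- against Tnfr2-/- glomeruli and over 6 against 6 arrays in every alternative with a test, at log2 changes of 1.92 to 2.84. Its dimmest probe set kept the direction but was called in none of these comparisons. Without a test, the 1 against 2 arrays of low actin 3' excess gave 2.82 for Tnfr1,2-/- against Tnfr2-/- glomeruli. The number of members called rose from 1 to 2 in Tnfr1,2-/- against wildtype with array weights, SAM (Hey1 in both), the replicate block and the array set as a block (Notch3 in both). In Tnfr1-/- against wildtype it rose to 3 with array weights and to 2 with SAM and with both blocks, and was 1 to 2 with 1 array left out. Over 6 against 6 arrays it fell to 1 with probe sets averaged or _s_at and _x_at probe sets left out, where Notch3 had 0.92 (adjusted p = 0.501). With the dimmest Heyl probe set the shift was 1.24 against Hey1 and 1.34 against Hey2. Deviations from the genotype mean were more alike in same-numbered arrays (median r 0.494, above 0.1 in 15 of 18 pairs) than in others (median r -0.34, above 0.1 in 12 of 36 pairs). Tnfr1,2-/- replicate 2 did not go with replicate 2 of wildtype, Tnfr1-/- or Tnfr2-/- (r of -0.13, -0.229 and -0.0046). The replicate block is thus not a full pairing, and the main fit leaves out what same-numbered arrays share. With the replicate block Heyl in Tnfr1,2-/- against wildtype was 2.25.

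Other pathway genes called in Tnfr1,2-/- against wildtype numbered 2, and 1 with probe sets averaged, all probe sets tested, cyclic loess or a 2-fold threshold, 5 with array weights, 4 with SAM or either block, 0 with the 6 arrays alone and 1 to 3 with 1 array left out. In Tnfr1-/- against wildtype the count of 3 became 1 with probe sets averaged or all tested, 0 with the 6 arrays alone and 0 to 2 with 1 array left out. In Tnfr1,2-/- against Tnfr2-/- glomeruli 2 became 1 with probe sets averaged, all tested, a mean-variance trend, cyclic loess or the 6 arrays alone, 4 with the replicate block and 1 to 3 with 1 array left out. Over 6 against 6 arrays 4 became 1 at 2-fold. The cause of these changes was not tested.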
